A study of Mus musculus with 2 samples.

Results

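The steroid and orphan nuclear receptors described here are 8 genes of the mouse ovary: the estrogen receptors Esr1 and Esr2, the progesterone receptor Pgr, the glucocorticoid receptor Nr3c1, the mineralocorticoid receptor Nr3c2, and the orphan receptors Nr5a1 (SF-1), Nr5a2 (LRH-1) and Nr0b1 (DAX-1). They were found by the RefSeq accession of each probe that is not a control. This gave 13 probes at 31 spots for 8 of the 20658 genes named on the array, out of 55674 probes in all. Ovaries of 2-week-old mice were cut lengthwise into symmetrical pieces and cultured for 3 days, and total RNA was labelled with Cy3 and hybridised to single-colour oligonucleotide arrays. In the agonist group the medium held agonists of the tachykinin receptors TACR1 ([Sar9, Met(O2)11]-SP), TACR2 (GR-64349) and TACR3 (a succinylated fragment of substance P), and in the antagonist group it held antagonists of TACR1, TACR2 (GR-94800) and TACR3 (SB218795), each ligand at 1 μM. There was 1 array for each group. The strain of the cultured ovaries and the number of ovaries behind each RNA were not given in the sources used here, and no piece cultured without ligand was analysed.

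Nuclear receptors are transcription factors. Steroid receptors bind a hormone that has entered the cell, leave their chaperones and bind DNA at the genes they control. In the ovary, Esr2 is known as the estrogen receptor of granulosa cells and Esr1 as that of theca, stroma and surface epithelium. Pgr is induced in granulosa cells before ovulation, and Nr3c1 and Nr3c2 receive glucocorticoids and aldosterone. Nr5a1 and Nr5a2 are active without a steroid and control genes of steroid synthesis, and Nr0b1 is a corepressor of the NR5A receptors that lacks the usual DNA-binding domain. NR5A receptors and estrogen receptors recognise DNA that contains the letters AGGTCA.

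The promoters of Nr0b1, Nr5a2 and Esr1 are shown because they belong to a member that was higher with the agonists and carries AGGTCA, to a member that was lower and carries it, and to a member that was higher and does not carry it. Each holds the 250 bases before an annotated start site, from RefSeq on build GRCm38.p6, with AGGTCA or TATAAA on either strand in capitals.
Nr0b1 promoter: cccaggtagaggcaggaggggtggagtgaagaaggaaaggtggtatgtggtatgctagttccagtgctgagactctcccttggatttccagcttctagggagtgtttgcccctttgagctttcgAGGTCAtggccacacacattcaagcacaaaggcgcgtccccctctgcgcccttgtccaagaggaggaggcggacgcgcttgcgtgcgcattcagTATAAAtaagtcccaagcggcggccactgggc
Nr5a2 promoter: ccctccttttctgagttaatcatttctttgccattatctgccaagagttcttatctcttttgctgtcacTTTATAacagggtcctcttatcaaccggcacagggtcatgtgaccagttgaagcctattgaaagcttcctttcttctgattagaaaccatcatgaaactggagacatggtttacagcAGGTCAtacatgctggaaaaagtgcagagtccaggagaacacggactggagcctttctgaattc
Esr1 promoter: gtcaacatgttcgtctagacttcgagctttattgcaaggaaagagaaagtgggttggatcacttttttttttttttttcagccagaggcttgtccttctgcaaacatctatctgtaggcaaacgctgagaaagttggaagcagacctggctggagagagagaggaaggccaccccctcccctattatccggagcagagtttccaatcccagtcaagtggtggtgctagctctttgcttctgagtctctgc
They lie at chrX:86191525-86191774, plus strand (Nr0b1), at chr1:136960449-136960698, minus strand (Nr5a2) and at chr10:4611739-4611988, plus strand (Esr1). In Nr0b1 the AGGTCA began at base -126 and the TATAAA at base -32 from the start site. In Nr5a2 the AGGTCA began at base -64, and TATAAA was on the opposite strand at base -181. Promoter sequences of 6 members were in the table used, 8 windows in all, and those not shown, including another start of Nr5a2 and another of Esr1, did not hold AGGTCA. Of all 32851 promoters of the same length, 14.02% held AGGTCA on either strand and 12.4% held TATAAA. The letters AGAACA, the core of the motif shared by the glucocorticoid, mineralocorticoid and progesterone receptors, were found in both Nr5a2 windows and in no other member window, against 16.1% of all promoters. A match of letters is not a measured binding site.

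The files gave a background-corrected signal for every spot, not scaled between the arrays. The image analysis software marked 65.4% of the agonist spots and 61.6% of the antagonist spots as well above background, out of 59305 without controls, and 0 as saturated. Below, "signal" is this value, and a log2 ratio is the log2 signal on the agonist array minus that on the antagonist array, after each array was divided by the 75th percentile of its spots (672 and 569 signal units). A gene is called measured where its probe was marked as well above background on both. The 15258 genes measured had a median log2 ratio of -0.10 and an SD across genes of 0.48. With no scaling this median was 0.15, so a log2 ratio is read against the median and not only against 0. Each array stands for its group without a replicate, no test was possible, and the errors given are those of the spot and not of the ovary. The markers of oocytes (7 of 7 genes) and granulosa cells (6 of 6) were well above background on both arrays.

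The brightest probe of each of the 8 receptors was well above background on both arrays, and none differed by 2-fold with that probe: 0 of 8 were at least 2-fold higher and 0 of 8 at least 2-fold lower with the agonists, where 4.01% of all genes measured were higher and 0.577% lower by that much. At 1.5-fold the counts were also 0 of 8 in both directions, against 9.26% of all genes higher and 4.28% lower. The log2 ratio of the brightest probe was above 0 for Esr1 and Nr0b1 and below 0 for the other 6. Of these 6, Esr2, Nr5a1 and Nr3c2 lay within the software error of the median of all genes, and the probes of Pgr disagreed. Below 0 lay 62.3% of all genes measured and above 0 37.7%. The median over the 8 receptors was -0.37, and they ranged from -0.53 to 0.52.

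**Figure D1:**
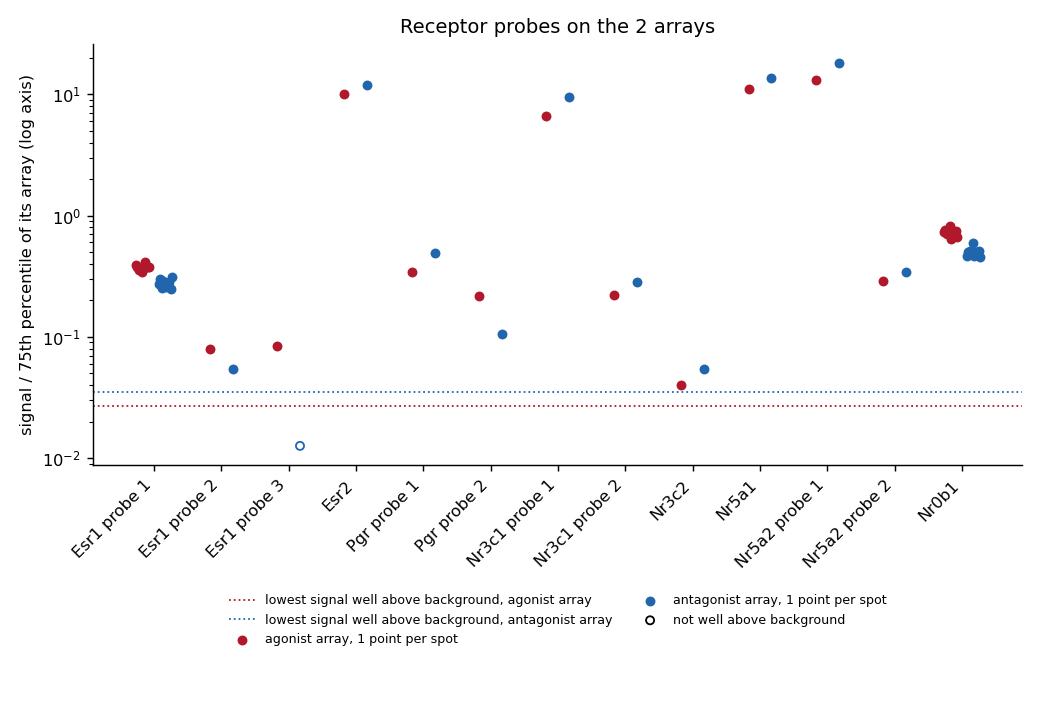
Signal of every spot of the 13 receptor probes, divided by the 75th percentile of its array (log axis), with the agonist array in red and the antagonist array in blue; dotted lines mark the lowest signal well above background on each array, and levels of different probes are not comparable. The spots of Esr1 probe 1 and of Nr0b1 separate with the agonist array above, and the Pgr probes lie in opposite order.

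Estrogen reaches its 2 nuclear receptors in different cells of the ovary, and only the Esr1 probes gave a direction that the scaling did not change. Esr1 was measured by 3 probes for the transcript NM_007956. Probe A_52_P237077 was printed at 10 spots, all well above background on both arrays. On the agonist array its signals lay between 230.2 and 277, with a median of 253. On the antagonist array they lay between 142 and 176, with a median of 154. The 10 agonist spots were all brighter than the 10 antagonist spots, and a gap of 0.14 on the log2 scale remained between the nearest spots once the arrays were scaled. Among the 284 probes printed at 10 spots and well above background at all of them, 22.9% showed the same complete order and 29.9% the opposite one. The log2 ratio of this Esr1 probe was 0.43 ± 0.11 (SD over 9 spots, after 1 agonist spot marked as an outlier was left out), or 1.35-fold. A ratio of this size or more was found for 12.5% of all genes measured.

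The other Esr1 probes were dimmer and gave the same direction. Probe A_55_P2030883 had agonist and antagonist signals of 53.3 and 30.7, a log2 ratio of 0.55 with a software error of 0.31. Probe A_51_P474658 had 56.1 with the agonists and 7.17 with the antagonists, where it was not well above background. With the background correction of the software its difference has only a lower bound, at least 2.39-fold higher with the agonists. For this bound the lowest signal well above background on the antagonist array (19.9) stood in for the dim value. Of 1179 named probes detected in this way with the agonists only, 13.9% had a bound of at least 2-fold. With normexp, a background correction by a model of signal plus noise, the ratio of A_55_P2030883 fell to 0.03 and that of the 10-spot probe to 0.24. The log2 ratio of A_51_P474658 with normexp was 0.38, under 2-fold and so below its bound.

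Esr2 was measured by 1 spot, of probe A_55_P2008197 for NM_207707. The agonist spot gave 6782 and the antagonist spot 6830, a log2 ratio of -0.01 before scaling. After scaling the log2 ratio was -0.25, with a software error of 0.20, and relative to the median of all genes it was -0.16, less than that error. Scaled on the control RNA that was spiked into both labellings, it was 0.01. No direction is given for Esr2.

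Pgr, the receptor through which progesterone acts in the preovulatory follicle, was measured by 2 probes for NM_008829 that disagreed. Probe A_51_P213476 had agonist and antagonist signals of 231 and 282, a log2 ratio of -0.53 with a software error of 0.21. Probe A_55_P2095663 had 146 and 60.1, a log2 ratio of 1.04 with a software error of 0.23, or 2.05-fold. Among the 33073 probes measured on both arrays, 2.69% were higher and 0.705% lower by 2-fold or more. Each rests on 1 spot per array, and all 4 spots were well above background. The probes lay 1.57 apart, and of the 3781 genes with over 1 probe well above background on both arrays 0.503% (19 genes, Pgr included) had probes at least as far apart, the median distance being 0.17. The bright probe stayed between -0.59 and -0.27 and the dim probe between 0.51 and 1.30 under 10 other ways of scaling and summarising, so no direction is given for Pgr as a gene.

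**Figure D2:**
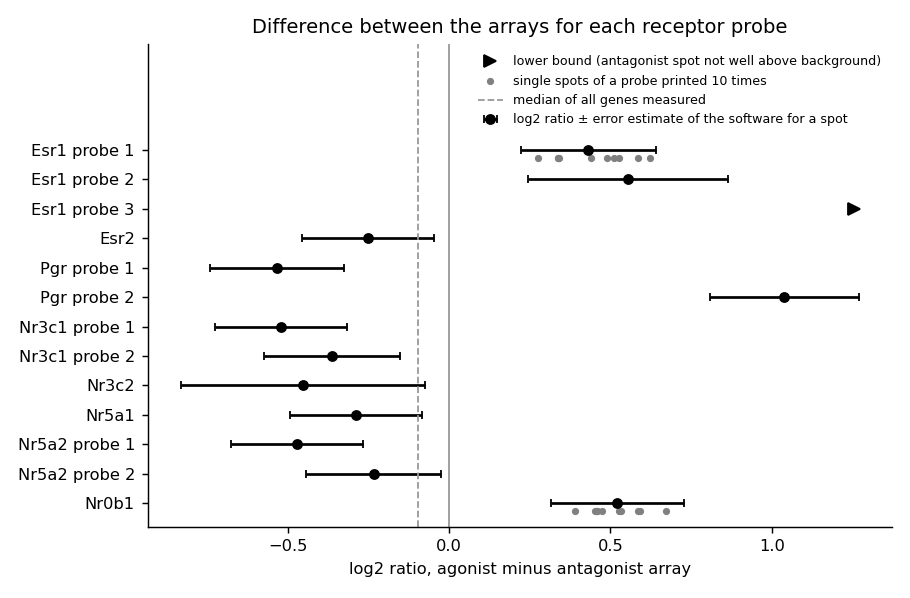
Log2 ratio of each receptor probe (x axis, agonist minus antagonist array), where bars are the software's error estimate for a spot, grey points the spots of probes printed 10 times, the arrowhead a lower bound and the dashed line the median of all genes measured (-0.10). Every Esr1 and Nr0b1 value lies right of 0, the Pgr probes lie at -0.53 and 1.04, and all probes of the remaining receptors lie left of 0.

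Of the corticosteroid receptors, Nr3c1 was lower with the agonists. Nr3c2 differed from the median of all genes by less than its error, and no direction is given for it. Nr3c1 had 2 probes for NM_008173. The bright probe, A_55_P1967885, had a signal of 4425 with the agonists and 5371 with the antagonists. Its log2 ratio was -0.52 with a software error of 0.20, or 1.43-fold lower, and 5.96% of all genes measured had a ratio as low. The dim probe, A_52_P254174, had 149 and 162, a log2 ratio of -0.36 with a software error of 0.21. Both probes thus had the same sign, and the bright one stayed between -0.58 and -0.26 in the 10 alternative settings that apply to a single probe.

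Nr3c2, which binds aldosterone and also glucocorticoids, had 1 probe, A_55_P2141978 for NM_001083906, close to the limit of detection. It gave an agonist signal of 26.8 and an antagonist signal of 31.0, against lowest signals well above background of 18.1 and 19.9. The log2 ratio was -0.45 with a software error of 0.38. Relative to the median of all genes it was -0.36, less than that error.

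The NR5A receptors, which drive genes of steroid synthesis in theca and granulosa cells, were close to the antagonist level or below it. Nr5a1 was measured by 1 spot of probe A_55_P2076560 for NM_139051, with a signal of 7516 for the agonists and 7758 for the antagonists. Its log2 ratio was -0.29 with a software error of 0.20, and relative to the median of all genes it was -0.19, less than that error. With no scaling it was -0.05 and with the spike-in scaling -0.03, and no direction is given for Nr5a1. Nr5a2, the NR5A receptor of granulosa cells, had 2 probes for NM_030676. The bright probe, A_51_P514449, had agonist and antagonist signals of 8784 and 10295, a log2 ratio of -0.47 with a software error of 0.20, or 1.39-fold lower. The dim probe, A_55_P2142908, had 196 and 194, a log2 ratio of -0.23 with a software error of 0.21. The probes differed by about the error of a spot, and the dim one reached 0.03 with the spike-in scaling.

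Nr0b1, the corepressor of this pair, had the highest log2 ratio of the 8 genes by their brightest probes. Its probe A_51_P106455 for NM_007430 was printed at 10 spots, all well above background. On the agonist array the signals lay between 431 and 549, with a median of 482. On the antagonist array they lay between 262 and 339, with a median of 284. No antagonist spot reached the dimmest agonist spot, and after scaling the gap was 0.10 on the log2 scale. Of the 284 probes printed at 10 spots and well above background at all of them, 22.9% showed this complete order and 29.9% the opposite one. The log2 ratio was 0.52 ± 0.09 (SD over 9 spots, after 1 spot marked as an outlier on both arrays was left out), or 1.44-fold, and 10.5% of all genes measured reached that ratio. In all 12 alternative settings it was above 0, between 0.43 and 0.78. Its sign was opposite to that of the bright Nr5a2 probe, and no direction is given for Nr5a1.

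**Figure D3:**
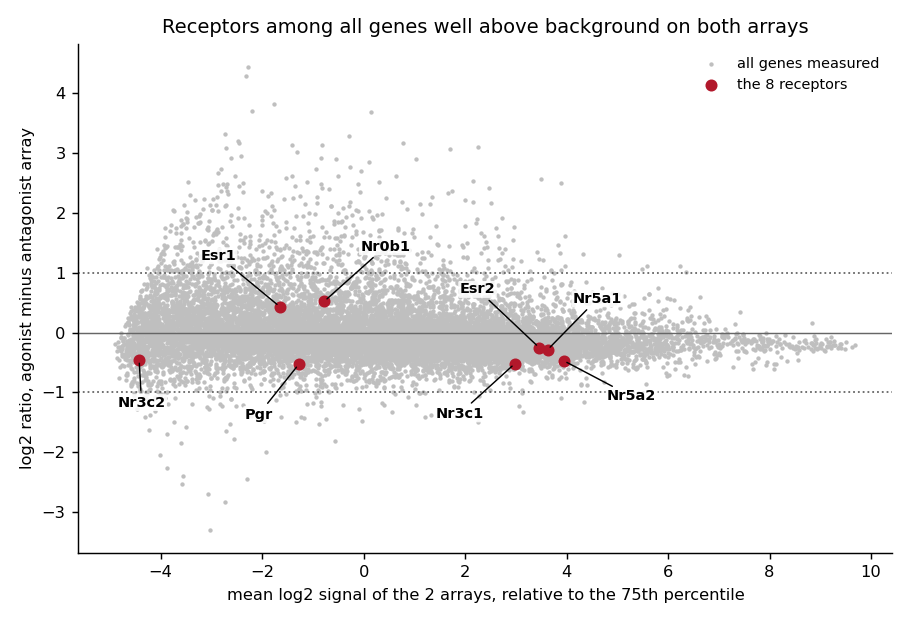
Log2 ratio (y axis, agonist minus antagonist array) against mean log2 signal relative to the 75th percentile (x axis) for the 15258 genes well above background on both arrays (grey), with the 8 receptors in red and dotted lines at a 2-fold difference. All 8 receptors lie inside the 2-fold lines, Esr1 and Nr0b1 above 0 and the other 6 below.

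Markers of several cell types differed between the arrays. Fewer cells of a type and less RNA per cell cannot be told apart in whole pieces of ovary. In the counts below, higher and lower mean a log2 ratio above or below 0, as 37.7% and 62.3% of all genes measured had. In the sums the brightest probes weigh most. Surface epithelium markers, where Esr1 is also known to be expressed, were higher with the agonists for 6 of 6 genes, and their summed scaled signal was 37.1 against 17.4. Stroma markers were higher for 5 of 6 genes, with sums of 368 and 310, and smooth muscle markers for 4 of 4 measured genes, with sums of 37.8 and 23.2. Macrophage markers were higher for 3 of 3 measured genes, with a median log2 ratio of 0.76 and sums of 10.06 and 8.43, and endothelium markers for 3 of 4, with a median of 0.45 and sums of 59.7 and 53.7. Ptprc of the macrophage list, Tek of the endothelium list and Des of the smooth muscle list passed the background mark with the agonists only. Granulosa markers, from the cells where Esr2 and Nr5a2 are known to be abundant, were lower for 4 of 6 genes, near the share of all genes. Their sums of 83.5 and 107 rest mostly on Inha (49.4 and 79.3) and Foxl2 (31.5 and 25.3), which differed in direction. The log2 ratios of the granulosa markers were -0.73 for Fshr, -0.68 for Inha, -0.67 for Amh and -0.14 for Inhba, and 0.32 for Foxl2 and 0.37 for Cyp19a1. For theca and interstitium, 3 of 4 measured genes were lower, with sums of 25.5 and 32.7 over 5 genes on the array. Most of both sums was Cyp17a1 (22.9 and 30.4), and Lhcgr was not well above background on either array. Oocyte markers had sums of 254 and 261. The part of these differences in the ratios of the receptors was not tested.

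Tissues next to the ovary also express these receptors. Of the adrenal markers, Nr5a1 and Nr0b1 tissue, Cyp11b2 was not well above background on either array and Mc2r was so on the agonist array only. Of the 3 measured, Cyp11b1, which completes glucocorticoid synthesis, had a log2 ratio of 1.89, Cyp21a1 -0.12 and Akr1b7 -0.20, and the summed scaled signal of all 5 was 1.19 and 1.11. Of the oviduct markers, Pax8 was well above background on the agonist array only. The other 3 were measured and differed in sign, with Tekt1 at 2.47, Foxj1 at -0.31 and Ovgp1 at -0.55, and the sum over 4 genes was 0.55 and 0.36. Of the adipocyte markers, Adipoq was not well above background on either array, and Cfd was well above it on the antagonist array only. Plin1 and Retn were measured and differed in sign, with 0.59 and -0.79, and the sum over 4 genes was 0.19 and 0.23. The part of these tissues was not tested.

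The rest of the nuclear receptor family was spread to both sides of 0. Of 41 other nuclear receptor genes, 34 were well above background on both arrays, 3 on the agonist array only, 1 on the antagonist array only and 3 on neither. Of the 34, 19 were above 0 (37.7% of all genes measured were) and 15 below, with a median log2 ratio of 0.02, and over 9 settings between 15 and 28 were above 0, so this list has no fixed direction. At least 2-fold higher were 2 of the 34, or 5.88%, near the 4.01% of all genes. These were Nr1h3, the oxysterol receptor LXR alpha, with 1.30 (signals of 1670 and 575) and Vdr, the vitamin D receptor, with 1.12 (321 and 125). The lowest were Rarb, a retinoic acid receptor, with -0.91 (163 and 258) and Nr4a2, an orphan receptor of the immediate early kind, with -0.67 (167 and 225). The other probes of Nr1h3, Rarb and Nr4a2 gave 1.19, -0.86 and -0.78. The 8 members and these 34 were not compared by a test.

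Coregulators carry the signal of a receptor to the transcription machinery. All 12 on the list were well above background on both arrays and close together, 11 below 0 and 1 above, with a median of -0.11 beside -0.10 for all genes. Ppargc1a, a coactivator of energy metabolism that also serves nuclear receptors, had 0.52, and Med1 -0.00, although 3 other probes of Med1 gave between -0.48 and -0.29. At the low end Ncoa2 had -0.24 and Ncoa3 -0.22, both p160 coactivators. With no scaling or spike-in scaling 12 of 12 were above 0, so the list has no fixed direction.

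Chaperones hold steroid receptors ready to bind hormone. All 8 were below 0, against 62.3% of all genes, with a median of -0.24. They ran from Dnajb1 (-0.54) and Stip1 (-0.48), cochaperones of HSP70 and HSP90, to Hsp90aa1 (-0.12) and Hsp90ab1 (-0.08). Without scaling 4 of 8 were above 0 and the median was 0.00, so the list too has no fixed direction.

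Enzymes that make or destroy receptor ligands set how much hormone reaches a receptor. Of 8 on the list, 7 were measured, 4 above 0 (37.7% of all genes) and 3 below, with 3 at least 2-fold higher (4.01% of all genes). Hsd11b1, which regenerates active glucocorticoid, was printed at 10 spots and averaged 1476 with the agonists against 183 with the antagonists, a log2 ratio of 2.76, or 6.79-fold. Of all genes measured, 0.682% were higher and 0.059% lower by 4-fold or more. Hsd11b2, which inactivates glucocorticoid and so guards Nr3c2, had 125 and 47.6, a log2 ratio of 1.15. Akr1c18, which degrades progesterone, was the third, with 1.04. Hsd17b1, which forms estradiol in granulosa cells, had -0.47, and Srd5a1, a steroid 5-alpha-reductase, -0.38. The number at least 2-fold higher lay between 1 and 3 over 9 settings, with 1 under normexp.

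Among membrane receptors of steroids, Paqr5, a membrane progesterone receptor, had signals of 597 and 25.9, a log2 ratio of 4.28 from 1 spot per array. The antagonist signal was close to the lowest one well above background there (19.9), so the size of this ratio is uncertain. Of all genes measured, 0.682% were higher and 0.059% lower by 4-fold or more. Of the other 5, all measured, Paqr7 (0.12) was the highest, and Pgrmc1 (-0.27) and Pgrmc2 (-0.08) were the lowest. The log2 ratio of Gper1, the membrane estrogen receptor, was 0.03.

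**Figure D4:**
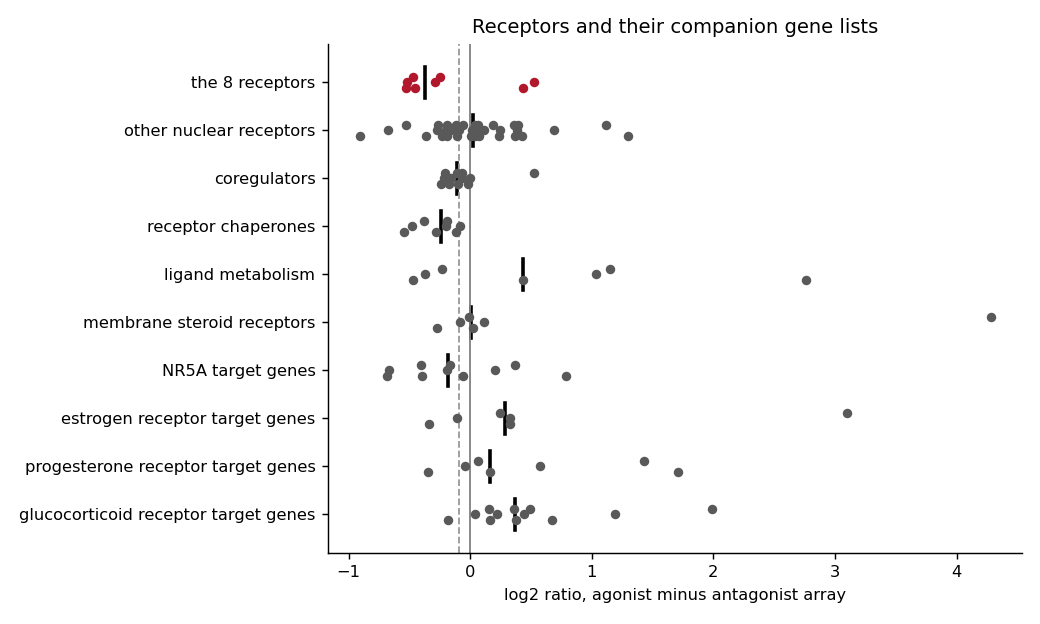
Log2 ratio (x axis, agonist minus antagonist array) of each gene well above background on both arrays, by list, with a bar at each median and a dashed line at the median of all genes measured (-0.10). The 8 receptors (red) have a median of -0.37, and glucocorticoid receptor targets one of 0.36.

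Target genes of the receptors were taken from lists of genes known to respond to each, many of which other factors also control. The lists were chosen with earlier results of these data known, so their counts are not independent of them. Whether the activity of a receptor differed was not tested. Of 12 glucocorticoid receptor targets, 11 were above 0, against 37.7% of all genes, and the median was 0.36, where Nr3c1 itself had -0.52. Zbtb16, a zinc finger repressor, had signals of 633 and 135, a log2 ratio of 1.99, and Pdk4, which restrains pyruvate use, had 942 and 349, or 1.19. The lowest were the metallothioneins Mt1 (-0.18) and Mt2 (0.03). Between 10 and 12 of the 12 were above 0 over 9 settings, with medians from 0.31 to 0.62. The count of 12 came with no scaling and the spike-in scaling, where the median of all genes was 0.15 and 0.16. At least 2-fold higher were 2 in each setting, where 4.01% of all genes were with the main scaling.

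Of 8 progesterone receptor targets 7 were measured, 5 above 0 (37.7% of all genes), with a median of 0.17 beside -0.10 for all genes. At least 2-fold higher were 2 of them (4.01% of all genes). Over 9 settings the median ran from 0.06 to 0.42, and 2 were at least 2-fold higher in all but normexp, where 1 was. Edn2, a contractile peptide of the ovulating follicle, had 146 and 37.8, a log2 ratio of 1.71 from 1 spot per array. Its antagonist signal was near the lowest one well above background there (19.9), so the size of this ratio is uncertain. Adamts1, a protease of ovulation, had 4291 and 1346, or 1.43. Snap25 had -0.35 and Cited2 -0.04.

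Of 8 estrogen receptor targets 6 were measured, 4 above 0 (37.7% of all genes), with a median of 0.29 beside -0.10 for all genes. At least 2-fold higher was 1 of them (4.01% of all genes). Complement C3 had 9441 and 934, a log2 ratio of 3.10 (2.22 for its other probe), and Ctsd, a lysosomal protease, 0.33. Greb1, an estrogen receptor cofactor, had -0.34 and Igf1 -0.11. Ltf, lactoferrin, was well above background on the agonist array only and was at least 1.78-fold higher there.

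Of 12 targets of the NR5A receptors 11 were found on the array and 10 measured, with a median of -0.18. Above 0 were 3 (37.7% of all genes) and below 0 were 7. The highest were Cyp11a1, which makes pregnenolone, with 981 and 480 or a log2 ratio of 0.79, and Cyp19a1, the aromatase, with 299.7 and 197 or 0.37. The lowest were Inha, the inhibin alpha subunit, with -0.68 and Amh with -0.67, which are also granulosa markers. None of the 10 was at least 2-fold higher or lower, where 4.01% of all genes were higher and 0.577% lower by that much. Over 9 settings between 3 and 6 of the 10 were above 0 and the median ran from -0.24 to 0.08, so this list has no fixed direction either.

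**Figure D5:**
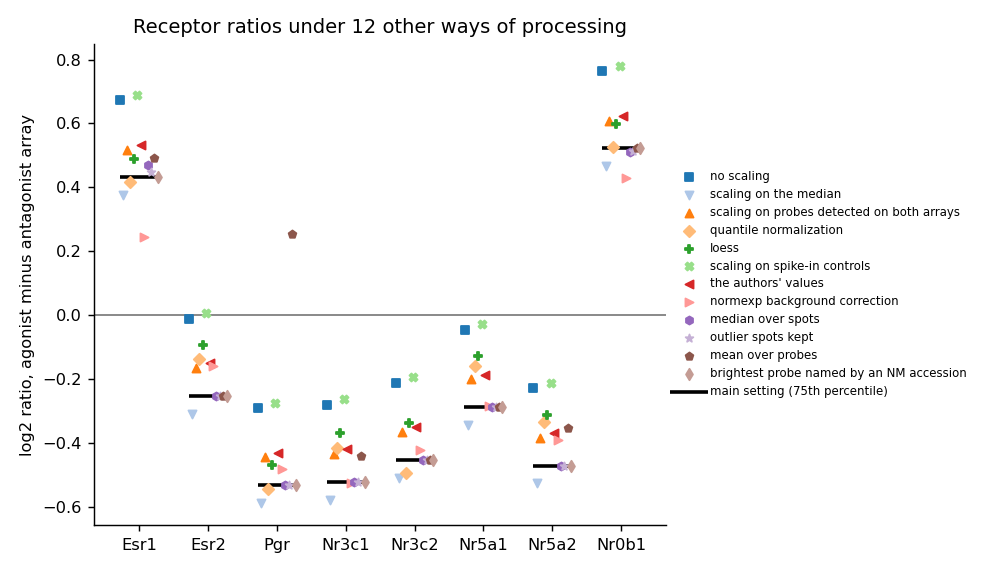
Log2 ratio (y axis, agonist minus antagonist array) of each receptor by its representing probe under the main setting (black bar) and 12 alternatives (coloured symbols). Esr1 and Nr0b1 stay above 0, Nr3c1, Nr3c2, Nr5a1 and Nr5a2 stay below, Esr2 reaches 0.01 and Pgr 0.25 when its probes are averaged.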

How the data were processed

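Gene expression in cultured pieces of mouse ovary was measured on 2 single-colour arrays, 1 per group, and the groups were taken from the sample labels. Per the file headers, the arrays were read with Agilent Feature Extraction 10.10.1.1. The deposited spot values are background-corrected intensity on a linear scale, without scaling between arrays, with the software's marks for outlying, saturated and well-above-background spots. The deposited summary table was checked to equal this intensity times a constant for each array, and served as an alternative. Probes were named by RefSeq accession (27230 of 55674 probes; 453 others with NM accessions stayed unnamed). Probe positions are not given, as the array was designed on another build.

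Control spots and outlier-marked spots were left out, log2 signals were reduced by the 75th percentile of the array, and spots of a probe were averaged. Over 50% of the spots of a probe had to be well above background for the probe to be called so. The probe of highest mean signal represented a gene. The software error is its estimate for the spots of both arrays, on the log2 ratio. A bound divides the bright value by the dim value or, if larger, by the lowest signal well above background there.

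Nothing was tested, each group having 1 array, and precision is limited by the number of arrays. Named genes are the 8 receptors, every probe, and the 2 highest and 2 lowest measured genes of each companion list; Akr1c18, Gper1, Ltf and the single marker genes were added after their values were seen. The members and lists were chosen with earlier results of these data known. No RefSeq-named probe was found for Insl3 and Cd68. Alternatives were other scalings, the authors' values, normexp (offset 50, on the median spot signal), loess (span 0.3), other summaries of spots and probes, other fold thresholds and filters. Python 3.11.15, numpy 2.4.6, pandas 2.3.3, statsmodels 0.14.6, R 4.3.3 and limma 3.58.1 were used, and the calculation was tested on simulated data.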

Additional observations from a re-analysis of the deposited data

How the results depend on the processing

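No paired analysis was possible because a single array stands for each group and nothing was tested. For the same reason no array could be left out. The log2 ratios of Esr1 and Nr0b1 stayed above 0 and those of Nr3c1, Nr3c2, Nr5a1 and Nr5a2 below 0 in all 12 alternatives. Of 96 values of the 8 receptors under these alternatives 94 kept their sign, 81 moved by less than the software error of a spot and 15 by more. The exceptions in sign were Esr2, 0.01 with the spike-in scaling, and Pgr, 0.25 as the mean over its probes. Part of the 96 values could not move. Settings on spots or probes leave a receptor with 1 spot or 1 probe unchanged, and the NM accession rule chose the main probe for all 8. Several scalings shift every gene by the same amount, so the 96 values are not separate checks. By its representing probe or the mean over its probes, no receptor was at least 2-fold higher or lower in any alternative. Single dimmer probes of Pgr and Esr1 did pass 2-fold with the main scaling, as given above, but not with normexp (0.51 and 0.38). The 1.5-fold threshold was applied with the main scaling only, where 0 of 8 passed it. With no scaling Nr0b1 (0.76) and Esr1 (0.67) were past 1.5-fold, and with the spike-in scaling too (0.78 and 0.69). Nr0b1 was also past it with scaling on probes detected on both arrays (0.61), with loess (0.60) and with the authors' values (0.62). Pgr (-0.59) was past it with scaling on the median.

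The median over the receptors, -0.37, was -0.13 with no scaling and -0.11 with the spike-in scaling, because these settings move all genes (their median from -0.10 to 0.15 and 0.16). The genes at least 2-fold higher and lower, 612 and 88, were 992 and 39 with no scaling, 1026 and 38 with the spike-in scaling, 323 and 33 with normexp, 1413 and 653 at 1.5-fold, 104 and 9 at 4-fold, 1349 and 554 when dim probes were kept, and 176 and 19 among genes no dimmer on average than the 75th percentile. With the authors' values 58 were lower. For the companion lists, 5 further scalings were added after seeing the data. Signal over background limits Nr3c2 and the dimmest Esr1 probe.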
